A study of Mus musculus with 6 samples.

Results

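Melanosomes are the organelles in which pigment cells make and store melanin, and 8 genes for proteins of their matrix, membrane and ion balance are described here: Pmel, Mlana, Gpnmb, Slc24a5, Slc45a2, Oca2, Gpr143 and Trpm1. They were chosen by name for what their products do, and all 8 were found among the 39179 genes of the count tables. The 6 RNA libraries of the mouse melanoma line B16-F10 came as 3 of cells with an intact Sirpa gene (Sirpa-WT) and 3 of cells with a knockout of it (Sirpa-KO), all from culture according to the series text. Sirpa encodes SIRPα, a membrane receptor that binds CD47, and the comparison asks how gene expression at rest differs between these tumour lines. The labels give no treatment or time, do not describe the edit, and do not say whether a line was 1 clone or whether replicates were separate cultures, so a p-value here covers library-to-library spread alone. The cell line field of all 6 libraries reads Pmel, which is also the symbol of a gene described here, and the tissue field reads tumor.

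A melanosome matures in stages. The amyloid protein PMEL is cut and assembles into fibrils inside an early endosomal compartment, the melanin enzymes and membrane transporters are delivered to it by dedicated vesicles, and the transporters then raise the pH and adjust the ions so that tyrosinase can work. Several of these genes are known targets of MITF, the transcription factor that directs the pigment cell lineage.

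Sirpa-KO replicate 1 stood apart from the other libraries and is called the deep library. It held 29877270 counts, 82.6 times the mean of the other 5, which held 338824 to 411695 and are called shallow. Across genes, Pearson's r of log2 CPM (counts-per-million) lay between 0.919 and 0.944 for pairs of shallow libraries, and between 0.022 and 0.097 for pairs with the deep one. Pseudogenes took 27.0% to 30.2% of counts in the shallow libraries and 0.216% in the deep one. Sirpa itself had 12, 7 and 3 counts in the Sirpa-WT libraries (29.1, 20.4 and 8.68 CPM). Under the knockout label it had 1584, 6 and 6 counts in replicates 1 to 3 (53.0, 17.7 and 16.3 CPM). The deep library, labelled knockout, thus held the highest Sirpa level of all. These values do not check the genotype labels, so directions refer to libraries as labelled. Each result is given with and without the deep library. As markers of the labelled melanoma cells, the melanin enzymes summed to 10758 to 16719 CPM per library. The lineage factors Mitf and Sox10 had at least 137 and 29 counts in each library. Pax3, another lineage factor, was too low to test, with only 4 to 10 counts per shallow library and 4268 in the deep one. Of 9 lymphocyte and pan-leukocyte markers 7 were at 0 in all shallow libraries, among them the defining gene Ptprc, and the list summed to at most 2.95 CPM in any library. Of 11 macrophage markers 7 were at 0 in all shallow libraries, among them Csf1r and Adgre1, and the list summed to 9.72 to 26.2 CPM in Sirpa-WT and to 5.29, 17.7 and 32.6 CPM in Sirpa-KO. This bears on Gpnmb, which macrophages also express: the marker with the highest mean was Itgam, with 3 to 7 counts per Sirpa-WT library and 1, 5 and 9 in Sirpa-KO replicates 1 to 3. Fibroblast, endothelial and keratinocyte markers summed to at most 13.6, 2.72 and 2.95 CPM.

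Without the deep library, 2 of the 8 genes fell in Sirpa-KO, Pmel and Slc24a5, and none rose. The other 4 genes that could be tested did not pass, and Oca2 and Trpm1 were too low to test. With all 6 libraries edgeR called 0 of the 6 tested genes, 1 at an unadjusted p under 0.05 (Slc24a5), against 0 with DESeq2 and 1 with limma voom (Gpr143). Over all 5397 genes of that fit edgeR called 0%, with the replicate block also 0%, DESeq2 0.0185% and limma voom 23.8%. Without the deep library edgeR called 5.84% of 5510 genes, 4.52% as lower and 1.32% as higher, and the 2 calls among 6 tested genes stand against that background. For these libraries DESeq2 called 2.4% of genes, limma voom 5.39%, the replicate block 5.74% and the fit with the ratio trend removed (described below) 3.7%, and Pmel and Slc24a5 were among the calls of all 4. Gpr143 passed the count filter through its 3 Sirpa-WT libraries and 1 Sirpa-KO library, so it entered the test mainly through the group where it was higher. In bulk RNA, fewer cells expressing a gene and less RNA of it per cell cannot be told apart.

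**Figure D1:**
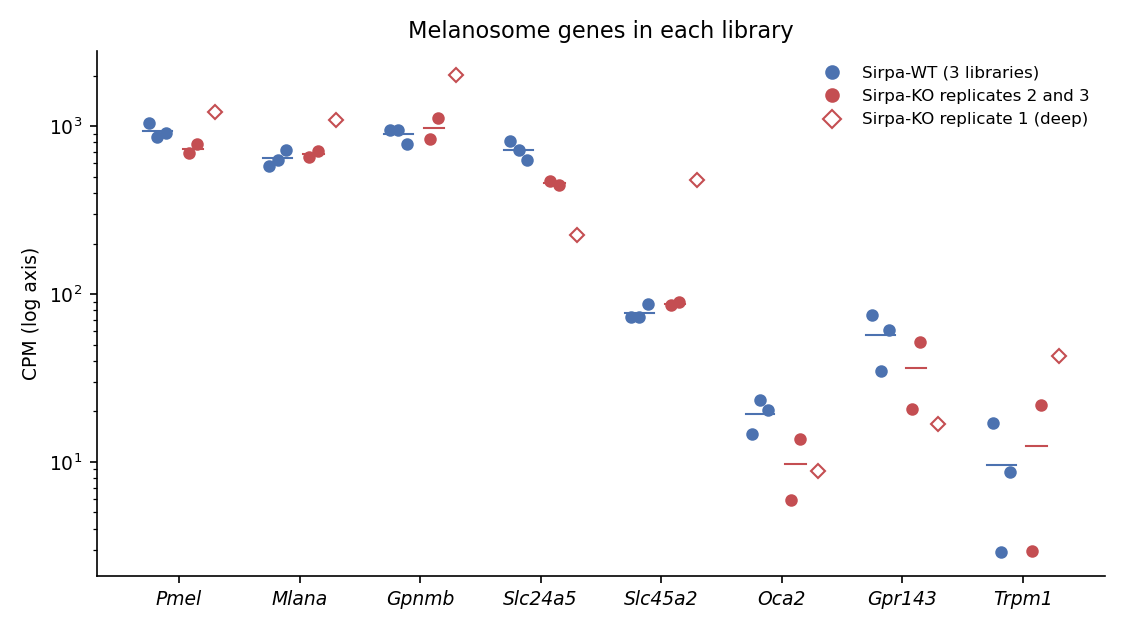
CPM of the 8 genes (x axis) on a logarithmic y axis, 1 point per library, with blue circles for Sirpa-WT, red circles for Sirpa-KO replicates 2 and 3 and open diamonds for the deep Sirpa-KO replicate 1; short lines are means of the circles. Slc24a5 lay at 628 to 814 CPM in Sirpa-WT and at 225 to 472 CPM in Sirpa-KO with no overlap, while the deep library was the highest of the 6 for Pmel, Mlana, Gpnmb, Slc45a2 and Trpm1.

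RefSeq gave the sequence before the transcription start for 4 of the 8 genes, Slc24a5, Gpnmb, Oca2 and Trpm1. Mitf RNA and Slc24a5 RNA were both lower in Sirpa-KO (values further on), so 3 of these windows, each of the 250 bases before the annotated start on GRCm38.p6, are shown for the words that MITF is known to bind: CATGTG, its extended form TCATGTG, and also CACGTG, all searched on both strands. Capitals mark the matches. Slc24a5 is the gene that fell, Trpm1 holds the same extended word but was too low to test, and Gpnmb holds none of the words and did not pass the test. The windows are chr2:125067877-125068126, chr7:64153585-64153834 and chr6:49036268-49036517, all on the plus strand.
Slc24a5: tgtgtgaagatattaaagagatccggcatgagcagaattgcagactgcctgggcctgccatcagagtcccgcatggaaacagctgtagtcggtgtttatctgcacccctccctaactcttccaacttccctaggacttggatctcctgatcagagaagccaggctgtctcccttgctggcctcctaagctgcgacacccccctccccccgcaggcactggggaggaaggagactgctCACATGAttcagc
Trpm1: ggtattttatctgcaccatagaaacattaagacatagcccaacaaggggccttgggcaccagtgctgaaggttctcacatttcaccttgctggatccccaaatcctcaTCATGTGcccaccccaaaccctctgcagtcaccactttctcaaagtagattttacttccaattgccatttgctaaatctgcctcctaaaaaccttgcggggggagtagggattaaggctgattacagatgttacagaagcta
Gpnmb: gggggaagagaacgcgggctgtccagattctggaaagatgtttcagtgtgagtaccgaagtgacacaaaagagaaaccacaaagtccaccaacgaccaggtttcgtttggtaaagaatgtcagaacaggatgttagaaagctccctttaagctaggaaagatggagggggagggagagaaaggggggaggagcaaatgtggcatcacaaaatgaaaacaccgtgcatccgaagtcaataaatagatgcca
In the Slc24a5 window the match starts 13 bases before the start and reads TCATGTG on the minus strand. This is the RefSeq start, and the window reaches 3 bases into the gene as Ensembl places it. In the Trpm1 window it starts 142 bases before the start on the plus strand. The Oca2 window, not printed, holds CATGTG without the leading T, 186 bases before its start, and a second Trpm1 window from an internal start holds CACGTG. Of 32851 such windows of all genes, TCATGTG stood in 3.25%, CATGTG (which TCATGTG contains) in 12.3% and CACGTG in 6.02%. A match describes letters, neither a site nor a cause, and no match says only that these letters are not in this window.

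Pmel, which encodes the amyloid matrix protein on which melanin is laid down, fell by a modest amount in the shallow Sirpa-KO libraries. The gene (ENSMUSG00000025359) has 11 merged exons at 128706258 to 128720238 of chromosome 10, plus strand, on GRCm38, the build and strand of all 8 genes. It stood at 1049, 861 and 909 CPM in Sirpa-WT replicates 1 to 3, and at 691 and 781 CPM in Sirpa-KO replicates 2 and 3. The 2 groups of shallow libraries did not overlap, but the deep library, at 1221 CPM, was above every Sirpa-WT library. The means were 939.7 ± 97.9 CPM (SD, n = 3) and 736 ± 63.6 (SD, n = 2). The log2 fold change was -0.48 ± 0.11 (SE, edgeR adjusted p = 0.00154). Without Sirpa-KO replicate 2, 1 shallow Sirpa-KO library is left, and Pmel stood at -0.41 (edgeR adjusted p = 0.146). With all 6 libraries it was -0.23 ± 0.40 (edgeR adjusted p = 0.808). Pmel shares 98 exon bases with Dgka on the opposite strand, which had at most 2 counts in any shallow library.

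Mlana (ENSMUSG00000024806; chromosome 19, 29697921 to 29708448), which encodes the small membrane protein MART-1 that assists PMEL maturation, did not pass the test. It stood at 583, 628 and 726 CPM in Sirpa-WT and at 655 and 709.9 CPM in Sirpa-KO replicates 2 and 3, both within the Sirpa-WT range. The log2 fold change was -0.036 ± 0.12 (SE, edgeR adjusted p = 0.906). In the deep library Mlana was at 1084 CPM, the highest of the 6. With all 6 libraries the log2 fold change was 0.17 ± 0.37 (SE, edgeR adjusted p = 0.829). Counts of Pmel per count of Mlana, a ratio that no scaling between libraries can alter, were 1.80, 1.37 and 1.25 in Sirpa-WT, then 1.13, 1.05 and 1.10 in Sirpa-KO replicates 1 to 3. Here all 3 Sirpa-KO libraries lay below all 3 Sirpa-WT libraries.

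Gpnmb (ENSMUSG00000029816; chromosome 6, 49036518 to 49058182), a lysosomal and melanosomal glycoprotein related to PMEL, varied more between the Sirpa-KO libraries than between the groups. It stood at 945, 954 and 787 CPM in Sirpa-WT, at 841 and 1112 CPM in Sirpa-KO replicates 2 and 3, and at 2030.3 CPM in the deep library. The shallow groups overlapped, and the log2 fold change was 0.0065 ± 0.11 (SE, edgeR adjusted p = 0.981). With all 6 libraries it was 0.40 ± 0.47 (SE, edgeR adjusted p = 0.723).

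Slc24a5 fell in each fit of the shallow libraries and was also lowest in the deep one. It encodes NCKX5, a potassium-dependent sodium/calcium exchanger of the pigment cell known for variants that lighten skin. The gene (ENSMUSG00000035183) has 10 merged exons at 125068124 to 125088677 of chromosome 2, plus strand. It stood at 814, 718 and 628 CPM in Sirpa-WT, from 335, 247 and 217 counts. In Sirpa-KO it stood at 472 and 446 CPM in replicates 2 and 3, from 160 and 164 counts, and at 225 CPM in the deep library. Every Sirpa-KO library was below every Sirpa-WT library, and the deep one was lowest. Of the 8 genes, 2 were ordered this way over 6 libraries (Slc24a5 and Oca2) and 3 over the shallow ones (Pmel also), where 10.2% and 11.8% of all tested genes were. None of the 8 was above in every library, where 20.4% and 26.3% of tested genes were. These shares leave out genes too low to test, as Oca2 and Trpm1 were. Among tested genes of the set, Slc24a5 alone was below over 6 libraries, and Slc24a5 and Pmel over the shallow ones. The means were 720.0 ± 92.9 CPM (SD, n = 3) and 459 ± 18.5 (SD, n = 2). The fitted log2 difference was -0.77 ± 0.13 (SE; adjusted p = 3.48e-07 in edgeR). With all 6 libraries the value was -1.06 ± 0.43 (edgeR adjusted p = 0.574). Over the other settings of the 5-library fit Slc24a5 was called each time, between -0.86 and -0.60.

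Slc24a5 overlaps Myef2 on the opposite strand over 921 of its 2330 exon bases, and since no strand option was set in counting, fragments there could not be assigned by strand. Myef2, a repressor of transcription in myelin-forming cells, had 146, 98 and 96 counts across the Sirpa-WT libraries, and 96 and 107 in Sirpa-KO replicates 2 and 3. Its log2 fold change was -0.22 ± 0.16 (SE, edgeR adjusted p = 0.460). Counts of Slc24a5 per count of Myef2 were 2.29, 2.52 and 2.26 in Sirpa-WT, then 1.08, 1.67 and 1.53 in Sirpa-KO replicates 1 to 3. The groups did not overlap in this ratio either. How the shared stretch enters the 2 counts was not tested.

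The other ion transporters were lower in level. Slc45a2 (ENSMUSG00000022243; chromosome 15, 11000721 to 11029233) encodes a melanosomal membrane transporter that helps raise the pH, and it stood at 72.9, 72.7 and 86.8 CPM in Sirpa-WT, against 85.6 and 89.8 CPM in Sirpa-KO replicates 2 and 3. The values overlapped and rested on 25 to 33 counts each, and the log2 fold change was 0.063 ± 0.26 (SE, edgeR adjusted p = 0.927). The deep library stood far above them at 477 CPM, so that the fit with 6 libraries gave 1.31 ± 0.73 (edgeR adjusted p = 0.574). Counts of Slc24a5 per count of Slc45a2 were 11.2, 9.88 and 7.23 in Sirpa-WT, then 0.471, 5.52 and 4.97 in Sirpa-KO replicates 1 to 3. Oca2 (ENSMUSG00000030450; chromosome 7, 56239760 to 56536517) encodes the P protein, a melanosomal membrane protein needed for chloride conductance, whose loss causes oculocutaneous albinism. Its counts were as few as 6, 8 and 7 for the Sirpa-WT libraries and 2 and 5 for Sirpa-KO replicates 2 and 3, which is 14.6 to 23.3 CPM against 5.90 and 13.6, and 263 counts (8.80 CPM) in the deep one. In the shallow libraries Oca2 in Sirpa-KO was 0.519 of its Sirpa-WT level by library totals. The exact 95% interval of 0.187 to 1.27 covers counting error only. No difference was thus detectable at this depth, even though every Sirpa-KO library was below every Sirpa-WT library. Without the count filter the log2 fold change of Oca2 was -1.08 ± 0.62 (SE, edgeR adjusted p = 0.648) in the shallow libraries. With all 6 libraries it was -1.40 ± 0.70 (SE, edgeR adjusted p = 0.938).

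Gpr143 (ENSMUSG00000025333; chromosome X, 152781921 to 152808646) encodes OA1, a receptor on the melanosome membrane that controls organelle size and number. The Sirpa-WT libraries held 31, 12 and 21 counts of it, and 7 and 19 counts were found in Sirpa-KO replicates 2 and 3, or 75.3, 34.9 and 60.8 CPM against 20.7 and 51.7. The groups overlapped, and the log2 fold change of -0.77 ± 0.33 did not pass (SE, edgeR adjusted p = 0.154). It moved widely with 1 library, to -0.50 when Sirpa-WT replicate 1 was left out, -0.31 for Sirpa-KO replicate 2 and -1.60 for Sirpa-KO replicate 3, and none of these passed. In the deep library Gpr143 stood at 16.7 CPM, below each of the others. With all 6 libraries its log2 fold change was -1.12 ± 0.60 (SE, edgeR adjusted p = 0.574). Trpm1 (ENSMUSG00000030523; chromosome 7, 64153835 to 64269775), a cation channel gene that carries the microRNA gene Mir211 in an intron, held 7, 1 and 3 counts for the Sirpa-WT libraries and 1 and 8 for Sirpa-KO replicates 2 and 3. In Sirpa-KO replicates 2 and 3 it was 1.28 times its Sirpa-WT level by library totals, within 0.467 to 3.38 (exact 95% interval, counting error only). The deep library held 1278 counts, or 42.8 CPM. Without the count filter the log2 fold change of Trpm1 was 0.19 ± 0.68 (SE, edgeR adjusted p = 0.946) in the shallow libraries. With all 6 libraries it was 0.82 ± 0.91 (SE, edgeR adjusted p = 0.938).

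**Figure D2:**
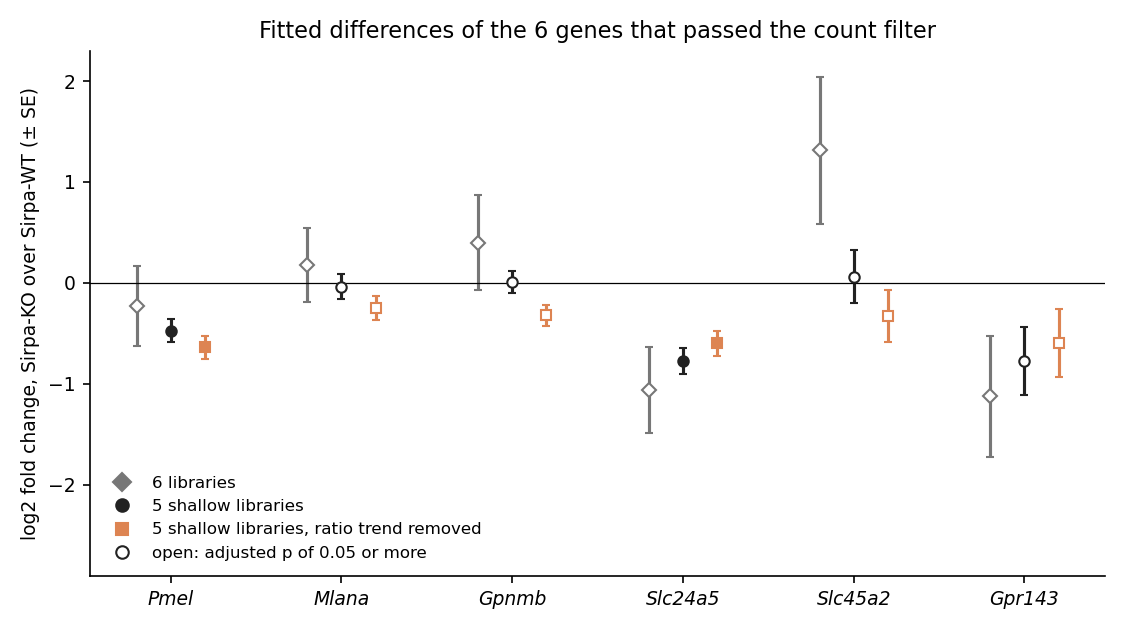
Log2 fold change of Sirpa-KO over Sirpa-WT with its SE (y axis) for the 6 genes that passed the count filter (x axis), from all 6 libraries (grey), from the 5 shallow ones (black) and from these after removing the ratio trend described further on (orange); filled symbols have an edgeR adjusted p under 0.05. Pmel and Slc24a5 are filled in both 5-library fits, at -0.48 and -0.77 and then at -0.64 and -0.60, and the SE of each gene is larger with 6 libraries.

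Compared per kilobase of exon, which is the scale on which genes can be ordered, Mlana was the most abundant. Over the 5 shallow libraries it averaged 1060.3 CPM per kb (range 936 to 1166), followed by Pmel at 403 (324 to 493), Slc24a5 at 264 (191 to 349) and Gpnmb at 244 (207 to 293). The range of Mlana was clear of that of Pmel, while the ranges of Pmel and Slc24a5 overlapped over both groups together, as did those of Slc24a5 and Gpnmb. Within each shallow library Pmel was above Slc24a5, at 493, 404 and 427 CPM per kb against 349, 308 and 270 in Sirpa-WT, and at 324 and 366 against 203 and 191 in Sirpa-KO replicates 2 and 3. Slc45a2 at 27.3 (24.4 to 30.1) and Gpr143 at 24.4 (10.4 to 37.7) overlapped each other and lay below the range of Gpnmb. Oca2 at 3.92 (1.49 to 5.88) and Trpm1 at 0.926 (0.253 to 1.89) came last, below the range of Gpr143, and overlapped each other. On these exon lengths Slc24a5 and Gpnmb changed places between the groups: Slc24a5 per kb was 1.40, 1.23 and 1.30 times Gpnmb in Sirpa-WT, and 0.915, 0.654 and 0.181 times in Sirpa-KO replicates 2, 3 and 1. Mlana, with 623 exon bases, is the shortest of these genes, and the length of Slc24a5 includes the stretch it shares with Myef2. Fragments there could not be assigned by strand, so the place of Slc24a5 against Pmel and Gpnmb holds for this length only. The order on a length without that stretch was not tested.

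**Figure D3:**
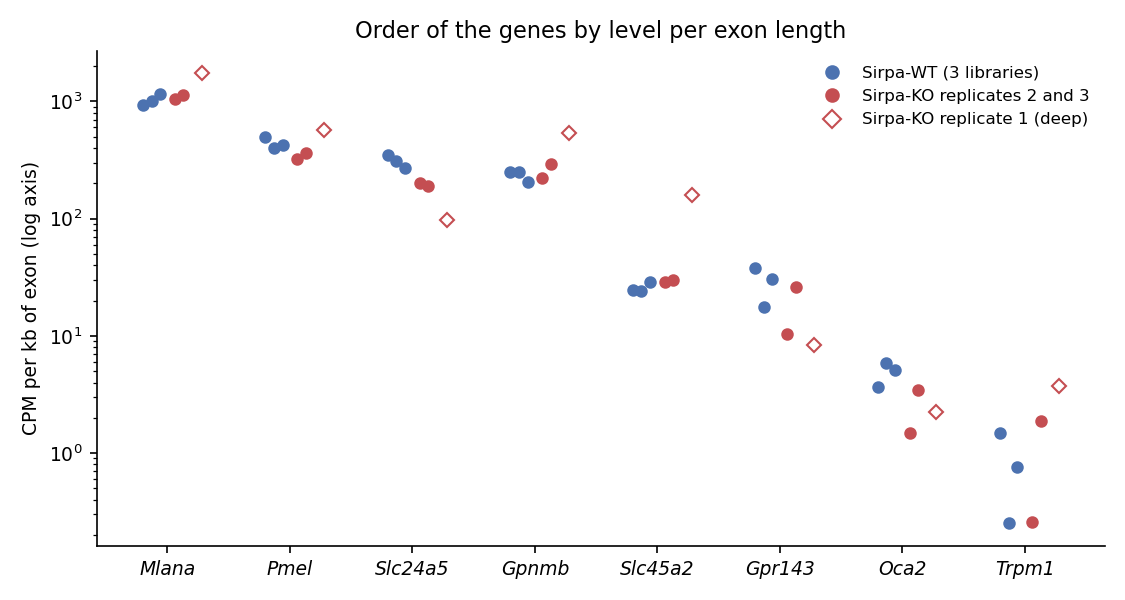
CPM per kilobase of merged exon on a logarithmic y axis for the 8 genes, ordered by their mean over the 5 shallow libraries, with the same symbols for Sirpa-WT, shallow Sirpa-KO and deep library. Mlana is highest at 936 to 1166 CPM per kb in the shallow libraries, the last 4 genes lie below 40 there, and Slc45a2 in the deep library stands above its shallow range of 24.4 to 30.1.

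The deep library departed from the shallow ones in both directions among these genes. For each gene the mean log2 CPM of the shallow libraries was subtracted from its log2 CPM in the deep library, with a prior count of 2. This log2 ratio had a median of 0.96 over 4295 tested protein-coding genes. Slc24a5 (-1.41) and Gpr143 (-1.39) lay at percentiles 6.54 and 7.17 of those genes, and Slc45a2 (2.55) and Trpm1 (2.39) at 98.4 and 97.5. Pmel (0.52), Mlana (0.72) and Gpnmb (1.14) lay nearer the middle. For each shallow library, a lowess trend on this ratio was fitted to its log2 CPM deviations from the 5-library mean. Removing these trends in the fit moved the median log2 fold change of all genes from 0.013 to -0.12. Slc24a5 then stood at -0.60 ± 0.12 (SE, edgeR adjusted p = 0.00025) and Pmel at -0.64 ± 0.11 (edgeR adjusted p = 3.74e-06). Gpnmb moved to -0.32 (edgeR adjusted p = 0.06) and Slc45a2 to -0.33 (edgeR adjusted p = 0.599). The part of the deep library's difference in any of these results was not tested.

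The other genes of the pigment pathway were read in the shallow libraries, in lists chosen with earlier results of these data known, and each count stands beside the 5.84% of all tested genes called (4.52% as lower). Of the 3 melanin enzyme genes, Dct fell (-1.02 ± 0.08, SE, edgeR adjusted p = 6.34e-32), and Tyrp1 (-0.16, edgeR adjusted p = 0.242) and Tyr (-0.15) did not pass. With the ratio trend removed Tyrp1 was called as well (-0.34, edgeR adjusted p = 0.000896). Of the lineage transcription factors 2 of 8 were measured: Mitf fell from 260, 222 and 205 counts to 145 and 137 (-0.76 ± 0.13, SE, edgeR adjusted p = 2.42e-06) and Sox10 (0.18) did not pass. Of 15 measured cargo delivery genes 1 fell, Rab38, a GTPase that brings enzymes to the melanosome (-0.63 ± 0.12, SE, edgeR adjusted p = 2.52e-05), a share near that of all genes. Rab27a, a GTPase that tethers melanosomes at the cell edge, stood at -0.78 (edgeR adjusted p = 0.0772) and was called with the replicate block (-0.98, adjusted p = 0.0208) and with the ratio trend removed (-1.08, adjusted p = 0.00802). Of 5 other measured transporters of melanosomes and lysosomes 2 fell, the calcium channel genes Mcoln1 (-1.17 ± 0.37, SE, edgeR adjusted p = 0.0280) and Tpcn1 (-1.27 ± 0.42, SE, edgeR adjusted p = 0.0434). Both rest on few counts, 27, 18 and 17 against 9 and 10 for Mcoln1 and 22, 15 and 12 against 8 and 6 for Tpcn1. Both passed the count filter of 28.9 CPM only through Sirpa-WT, the group where they were higher. In Sirpa-KO replicates 2 and 3 Mcoln1 stood at 26.6 and 27.2 CPM and Tpcn1 at 23.6 and 16.3 CPM. These 2 calls therefore cannot be read against the share of all genes called. Neither was called with the replicate number as a block (edgeR adjusted p = 0.125 for Mcoln1 and 0.187 for Tpcn1) or with limma voom (adjusted p = 0.0754 and 0.125), and DESeq2 gave neither an adjusted p. With the ratio trend removed edgeR called Tpcn1 (adjusted p = 0.0477) but not Mcoln1 (adjusted p = 0.115). Of 5 measured genes that cut or sort PMEL, edgeR called 0, with 0 at an unadjusted p under 0.05 and 0 by DESeq2 and by limma voom. The most abundant of them, Cd63, which sorts PMEL within endosomes, averaged 518 ± 51.0 CPM (SD, n = 3) for Sirpa-WT, and for shallow Sirpa-KO 544 ± 22.6 CPM (SD, n = 2). No measured member of these lists was called higher in edgeR's 5-library test. With all 6 libraries edgeR called none of them in either direction. Dct then stood at -1.29, Mitf at -0.74, Rab38 at -0.76, Mcoln1 at -1.47 and Tpcn1 at -1.05 (edgeR adjusted p = 0.574 each). The median log2 fold change was -0.16 for the enzymes, -0.29 for the factors, -0.040 for cargo delivery, 0.10 for the other transporters and -0.052 for PMEL processing, against 0.013 over all 5510 genes.

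**Figure D4:**
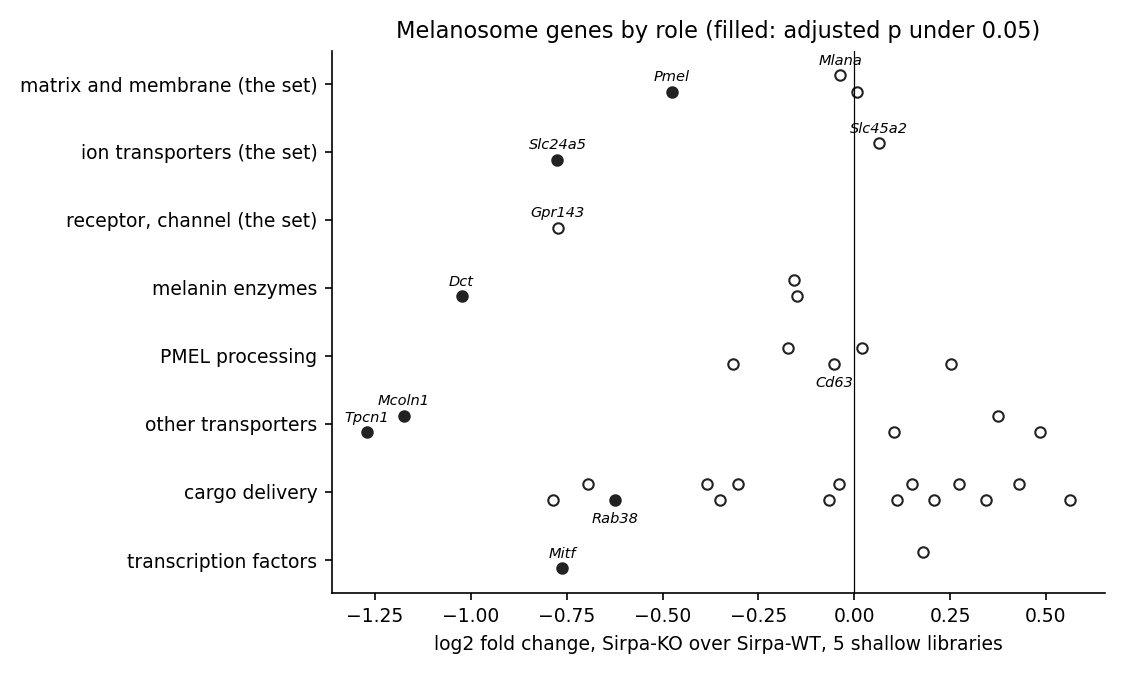
Log2 fold change of Sirpa-KO over Sirpa-WT in the 5 shallow libraries (x axis) for the measured genes of each role (y axis), 1 point per gene, filled where the edgeR adjusted p was under 0.05; vertical position within a role has no meaning. Filled points, all left of 0, are Pmel, Slc24a5, Dct, Mcoln1, Tpcn1, Rab38 and Mitf.

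Ratios of counts within a library show how Slc24a5 moved against other pigment genes. Per count of Pmel, Slc24a5 had 0.775, 0.834 and 0.691 in Sirpa-WT, then 0.184, 0.684 and 0.571 in Sirpa-KO replicates 1 to 3, so the groups were narrowly apart in the shallow libraries. Counts of Slc24a5 per count of Mitf were 1.29, 1.11 and 1.06 in Sirpa-WT, against 1.10 and 1.20 in Sirpa-KO replicates 2 and 3, which lie within the Sirpa-WT range. In the deep library this ratio was 0.501. Per count of Dct, Slc24a5 had 0.0819, 0.0831 and 0.0795 in Sirpa-WT, against 0.103, 0.0917 and 0.0901 in Sirpa-KO replicates 2, 3 and 1, all above Sirpa-WT. Of the summed counts of the 8 genes, Slc24a5 took 19.5% to 22.8% in Sirpa-WT, against 17.0%, 13.8% and 4.4% in Sirpa-KO replicates 2, 3 and 1. Gpnmb took 24.4% to 28.9% in Sirpa-WT and 30.3%, 34.5% and 39.8% there. These shares move together, since the sum contains Slc24a5 and Pmel, and the CPM of Gpnmb itself overlapped between the shallow groups.

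**Figure D5:**
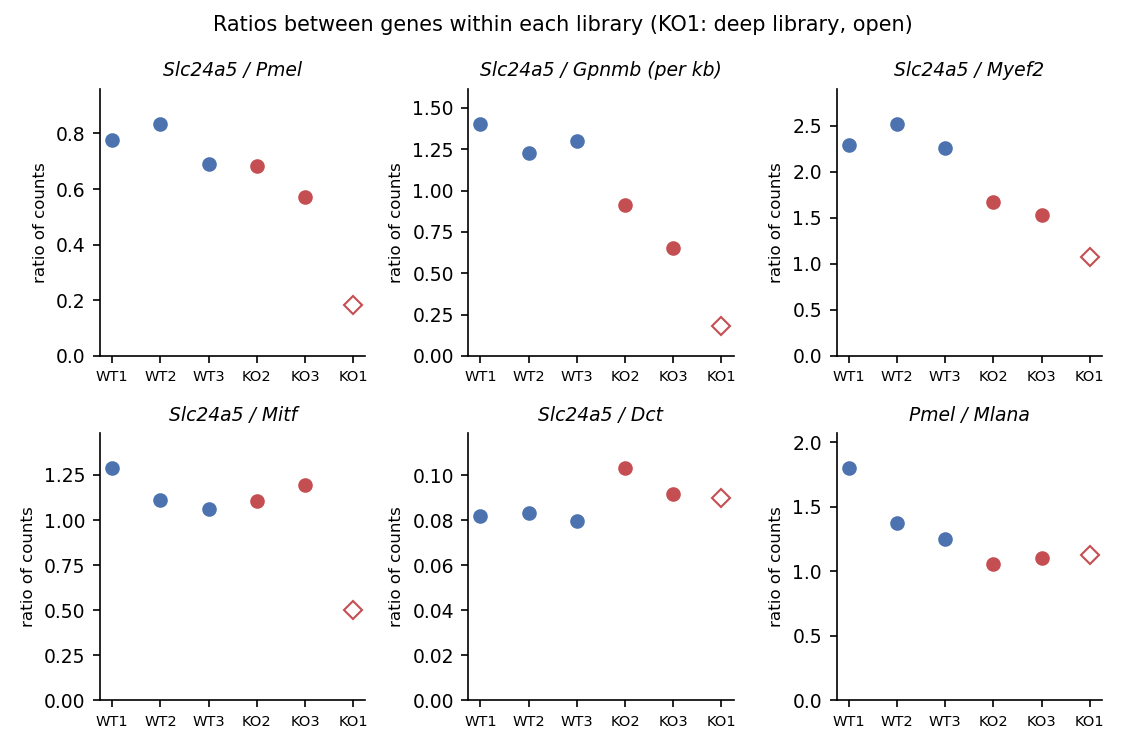
Ratios of counts between 2 genes within each library (y axes, from 0) in 6 panels, with libraries on the x axes: Sirpa-WT blue, shallow Sirpa-KO red, deep library (KO1) as an open diamond; the Gpnmb panel is per kilobase of exon. Slc24a5 per Myef2 falls from 2.26 to 2.52 in Sirpa-WT to 1.08 to 1.67 in Sirpa-KO, while Slc24a5 per Mitf overlaps between the groups in the shallow libraries.

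The tested neighbours on the chromosome were counted against the same 5.84% of all genes called. Of 25 tested genes within 1 Mb of Pmel, edgeR called 0 (3 at an unadjusted p under 0.05, 0 by DESeq2 and 0 by limma voom), and their median log2 fold change was 0.16. They include Cd63. Of 7 tested neighbours of Slc24a5, edgeR called Sema6d, an axon guidance gene that starts at 124089969 of chromosome 2. It fell from 20, 16 and 20 counts to 5 and 5 (-1.94 ± 0.44, SE, edgeR adjusted p = 0.000662). Both shallow Sirpa-KO counts were under the filter's minimum count of 10, so Sema6d entered the test only through Sirpa-WT, where it was higher. DESeq2 gave it no adjusted p, and limma voom called it (adjusted p = 0.0397). The median of the 7 was -0.022. Near Gpnmb, the processed pseudogene Gm17060 was called higher, with 26, 18 and 37 counts for Sirpa-WT, and 47 and 56 in Sirpa-KO replicates 2 and 3, but 1 count in the deep library. With all 6 libraries edgeR called no neighbour, with Sema6d at -2.32 (adjusted p = 0.574) and Gm17060 at 0.24 (adjusted p = 0.943).

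For the 4 genes with at least 100 CPM, the 3 genes of most similar profile over the 5 shallow libraries were listed, by the root mean square difference of log2 CPM after centring each gene on its own mean. Among 1351 protein-coding genes these were Gbe1, Hspa13 and Idh1 for Slc24a5 (differences of 0.053, 0.054 and 0.074, where the median gene had 0.39). For Pmel they were Poglut1, Ciapin1 and Tmed10 (0.045, 0.047 and 0.048, median 0.28). For Mlana they were Pclaf, Rpl8 and Rpl23a (0.018, 0.019 and 0.026, median 0.23), and for Gpnmb Zc3hav1, Tln1 and Elp2 (0.059, 0.062 and 0.062, median 0.25). None of the 12 is a gene of the lists above.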

How the data were processed

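RNA was measured by poly(A)-selected, stranded sequencing in 3 Sirpa-WT and 3 Sirpa-KO libraries, grouped by sample title. Per the file headers, the deposited counts are raw fragments per gene, made with featureCounts 1.5.1 over exons of Ensembl release 75 for GRCm38, with no strand option. The submitters' processing notes also name STAR 2.6.0. Symbols came from GENCODE mouse release 21 by gene identifier (37693 of 39179 genes). The members, gene lists and the 5-library comparison were chosen with earlier results of these data known. Genes passing filterByExpr (minimum count of 10, or 28.9 CPM for the 5 shallow libraries, where 3 counts equal 7.29 to 8.85 CPM) were scaled by TMM and tested with edgeR 4.0.16 (quasi-likelihood, robust, 2-sided, R 4.3.3). Benjamini-Hochberg adjustment ran over all genes tested, with a threshold of 0.05. DESeq2 1.42.0 and limma 3.58.1 were alternatives, with other scalings and filters, protein-coding genes only, a replicate block, each library left out, thinning of the deep library, and removal of a lowess trend (span 0.3) on the log2 ratio of that library to the rest. The tests were also run on simulated counts, but that outcome is not given here and no result rests on it. The chi-square statistic of shallow replicate pairs was 1.15 to 1.45 times its degrees of freedom. No pair was merged into 1 library, but values this near to counting noise cannot show that the replicates were separate cultures. Intervals cover counting error only. The intervals, their ratios and all CPM use library totals without TMM. On that scale the median log2 fold change of the 5-library fit was 0.15, against 0.013 with TMM. Named genes were the 8 members, Sirpa, Mitf, Tyr, Tyrp1, Dct, at most 4 called genes per list or else its most abundant measured one, called genes within 1 Mb of a member, and the 3 genes of most similar profile. Other genes, such as Sox10, Rab27a, Myef2, Dgka and single markers, were named after their values were seen. Protein features were not used here.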

Additional observations from a re-analysis of the deposited data

How the results depend on the processing

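With 6 libraries the count of 0 called genes (edgeR, 344 at an unadjusted p under 0.05) became 1 with DESeq2 and 1283 with limma voom, and leaving each library out gave 0 to 322, the 322 being without the deep library, Sirpa-KO replicate 1. The members called went from 0 to 1 with limma voom (Gpr143, -2.08), and leaving each library out gave 0 to 2. With 5 shallow libraries the 322 calls (73 higher, 249 lower) became 132 with DESeq2, 199 in protein-coding genes and 204 with the ratio trend removed (139 shared with the 322), and 125 to 351 with each library left out. Under library size alone there were 407 calls, 279 higher and 128 lower, and that scaling moved the median log2 fold change from 0.013 to 0.15. The 2 members called were 1 to 2 with each library left out, 1 being without Sirpa-KO replicate 2, when Pmel stood at -0.41. Fits that drop a shallow Sirpa-KO library leave 1, assumed to vary like the rest. Values near 0 changed sign. Pmel over 6 libraries was 0.035 under library size alone. Mlana over 6 libraries was -0.030 unfiltered, -0.072 under a filter of 1 CPM in 3 libraries, -0.070 in protein-coding genes, -0.030 with the deep library thinned, and -0.036 (without the deep library) to 0.19 with each library left out. Over 5 libraries Mlana was 0.10 under library size alone and -0.11 to 0.060 with each library left out, above 0 without Sirpa-WT replicate 3. Over 5 libraries Gpnmb was -0.030 both unfiltered and under the 1 CPM filter, -0.00086 with limma voom, -0.022 in protein-coding genes, -0.32 with the trend removed, and -0.22 (without Sirpa-KO replicate 3) to 0.17 with each library left out, being -0.072 without Sirpa-WT replicate 3. With the trend removed Slc45a2 was -0.33. The causes were not tested. Same-numbered libraries correlated at 0.024, -0.041 and 0.058 in their deviations from group means. These values cannot show whether equal numbers mark pairs, because Sirpa-KO replicates 2 and 3 both mirrored the deep library. Sirpa-WT replicate 3, for example, correlated at -0.063, 0.065 and 0.058 with Sirpa-KO replicates 1 to 3. The replicate block gave 316 calls over 5 libraries (249 shared with the 322) and 0 over 6, and left Pmel (-0.39) and Slc24a5 (-0.67) called. Over 5 libraries Sirpa-WT replicate 1 is alone in its block and adds nothing to the group difference. That fit is therefore close to the one without this library, which gave -0.38 for Pmel and -0.67 for Slc24a5. DESeq2 gave no adjusted p for Slc45a2 and Gpr143 over 5 libraries. At this depth genes under 28.9 CPM in the shallow libraries were not tested.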
